A study of Mus musculus with 4 samples.

Results

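The genes described here encode proteins that make or license the programmed DNA double-strand breaks of meiosis, or mark break hotspots and read those marks. They are called the break machinery below, and their transcripts were followed in mouse pachytene spermatocytes kept with or without BMH21. The set was fixed by name: Spo11, Gm960 (also Top6bl), Rec114, Mei1, Mei4, Iho1 (also Ccdc36), Ankrd31, Prdm9 and Zcwpw1. Of these 9 genes, 8 had a row in the deposited count table of 15733 protein-coding genes, and all 8 passed the filter on low counts. The expression of Mei4 was not analysed here.

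The study compared 2 groups of 2 libraries. In the BMH21 group, suspensions of single mouse testicular cells were held ex vivo for 12 h with 2.5 µM BMH21, a DNA-intercalating small molecule known to inhibit RNA polymerase I. The mock group received the solvent DMSO for the same time. Pachytene spermatocytes were then isolated from both by cell sorting on Hoechst, a DNA dye, and their mRNA was sequenced. The labels call the 2 libraries of each condition biological replicates and give no strain, age or genotype. Cells were treated as mixed suspensions and sorted afterwards, so the drug met pachytene cells together with the other cells of the testis.

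As background, meiotic recombination starts from breaks made by SPO11, a topoisomerase-like protein that acts with the subunit TOPOVIBL, the product of Gm960. PRDM9 marks hotspots by methylating histone H3, and ZCWPW1 reads these marks. REC114, MEI4, IHO1, ANKRD31 and MEI1 are accessory proteins of the chromosome axis that license the breaks. Breaks form at leptotene and zygotene, before the pachytene stage sorted here, at which autosomes are synapsed and breaks are being repaired.

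The start-site sequences of 3 of these genes are shown because they stand for 3 levels and responses described below: Iho1 rose with BMH21, Ankrd31 was abundant and was not called, and Prdm9 was near the limit of detection. Each window is the RefSeq one on GRCm38.p6, from 250 bases before to 50 after the annotated start, read on the strand of the gene. Capitals mark matches to CNCCTCAG, the motif bound by the meiotic entry factor STRA8.
Iho1 (chr9:108431777-108432076, minus strand): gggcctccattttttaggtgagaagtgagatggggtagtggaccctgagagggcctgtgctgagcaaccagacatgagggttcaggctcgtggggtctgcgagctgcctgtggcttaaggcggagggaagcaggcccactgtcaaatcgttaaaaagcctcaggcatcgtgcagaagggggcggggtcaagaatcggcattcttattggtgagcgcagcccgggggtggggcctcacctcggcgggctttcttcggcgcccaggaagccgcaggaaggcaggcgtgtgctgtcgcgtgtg
Ankrd31 (chr13:96748043-96748342, plus strand): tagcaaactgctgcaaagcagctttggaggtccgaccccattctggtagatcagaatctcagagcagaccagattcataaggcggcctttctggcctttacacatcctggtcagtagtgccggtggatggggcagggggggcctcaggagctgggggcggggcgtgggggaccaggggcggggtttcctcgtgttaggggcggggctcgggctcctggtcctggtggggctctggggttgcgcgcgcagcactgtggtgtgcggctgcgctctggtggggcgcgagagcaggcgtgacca
Prdm9 (chr17:15564305-15564604, minus strand): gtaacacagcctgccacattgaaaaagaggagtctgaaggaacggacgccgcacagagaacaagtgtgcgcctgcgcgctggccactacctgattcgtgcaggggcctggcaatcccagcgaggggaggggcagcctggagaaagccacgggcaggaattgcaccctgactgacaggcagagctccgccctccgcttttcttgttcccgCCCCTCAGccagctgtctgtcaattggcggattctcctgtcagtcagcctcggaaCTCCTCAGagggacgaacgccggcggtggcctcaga

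The table held 9 windows of 7 of the 8 counted genes; Spo11 was not among them. The shown Prdm9 window was the only one of the 9 to hold CNCCTCAG, with matches that begin 41 bases before the start (-41) and at base 15 of the transcript. Of all 32851 promoter windows in the table, 7.94% held that motif on either strand. AACNGTT, a motif of MYB factors such as the pachytene regulator A-MYB, was in 0 of the 9 windows, against 4.45% of all windows. TGACGTCA, the cyclic AMP response element, was also in 0 of the 9, against 1.79% of all. The motifs were searched on both strands and do not overlap each other in these windows. By base composition the Ankrd31 window had 65.3% G and C, and the Iho1 and the shown Prdm9 window 61.7% each, against a median of 52.7% over all windows. The shown Prdm9 start coincides with the GENCODE M21 gene start, whereas the RefSeq start of Iho1 lies 3342 bases upstream of it.

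The libraries held 33338160 and 37555727 counts (BMH21) and 41548269 and 30964370 counts (mock). Across all genes, 4013 of 13793 tested genes were called in edgeR's quasi-likelihood test at a Benjamini-Hochberg adjusted p under 0.05, which is 29.1%; 16.5% were called higher and 12.5% lower. With TMM scaling 2282 genes were called higher and 1731 lower, and with upper quartile scaling 1805 and 2480. Pachytene markers dominated both groups: their summed level was 4692 to 4702 CPM (read counts scaled to library size) in BMH21 and 4804 to 4818 CPM in mock, led by Hspa2 and Adam3. Of 7 pachytene markers tested, 5 were called lower in BMH21 (log2 fold changes of -0.07 to -0.22) and Adam3 was called higher (0.06). Hspa2 and Adam3 each lost the call without mock replicate 1 and without mock replicate 2. Adam3 also lost it under upper quartile scaling, and Pou5f2 (-0.22) without mock replicate 1. Round spermatid markers summed to 235 to 237 CPM in BMH21 and 226 to 229 CPM in mock, with Prm2 and Tnp2 the most abundant. The 7 listed spermatogonial markers, led by Gfra1 and Kit, summed to 14.1 to 16.9 CPM in BMH21 and 17.9 to 19.4 CPM in mock. Named after their values were seen, Zbtb16 (log2 fold change -0.95) and Kit (-0.58) of the spermatogonial list were called lower. Star (-0.50) of the Leydig list and Izumo1 (-0.60) of the round spermatid list, also named afterwards, were called lower too. The other tested genes of these lists were not called: 3 spermatogonial (list median -0.07), 7 round spermatid (list median 0.05) and Insl3 of the Leydig list (1.03). Zbtb16 lost the call without mock replicate 2 (-0.74) and without BMH21 replicate 1 (-0.77), Star without BMH21 replicate 1 (-0.44) and Izumo1 without BMH21 replicate 2 (-0.37). Kit kept its call in 5 of 11 alternatives, with log2 fold changes from -0.64 to -0.51. Markers of Sertoli cells (3 listed, led by Amhr2 and Amh), Leydig cells (3, Star and Insl3), immune cells (4, Ptprc and Lyz2) and peritubular or endothelial cells (4, Vwf and Pecam1) each summed to 7.26 CPM or less in BMH21 and 9.53 CPM or less in mock. No listed marker was at 0 in all 4 libraries.

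Transcripts of the break machinery together took 0.0308% and 0.0301% of the counts in the BMH21 libraries, against 0.0320% and 0.0315% in the mock libraries. Spo11 and Ankrd31 alone supplied 77.9% and 78.1% of those counts in BMH21, and 80.7% and 80.1% in mock. Levels within the set were thus very unequal. Per kilobase of merged exons, Spo11 stood highest at 26.5 ± 0.663 CPM per kb in BMH21 and 29.6 ± 0.246 in mock, and Prdm9 lowest at 0.122 ± 0.0657 in BMH21 and 0.168 ± 0.0348 in mock (SD, n = 2 each). Per library, Spo11 stood 160.3-fold and 346-fold above Prdm9 in BMH21, and 207-fold and 152-fold in mock. These ratios overlap and rest on 12 to 26 Prdm9 counts a library.

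**Figure D1:**
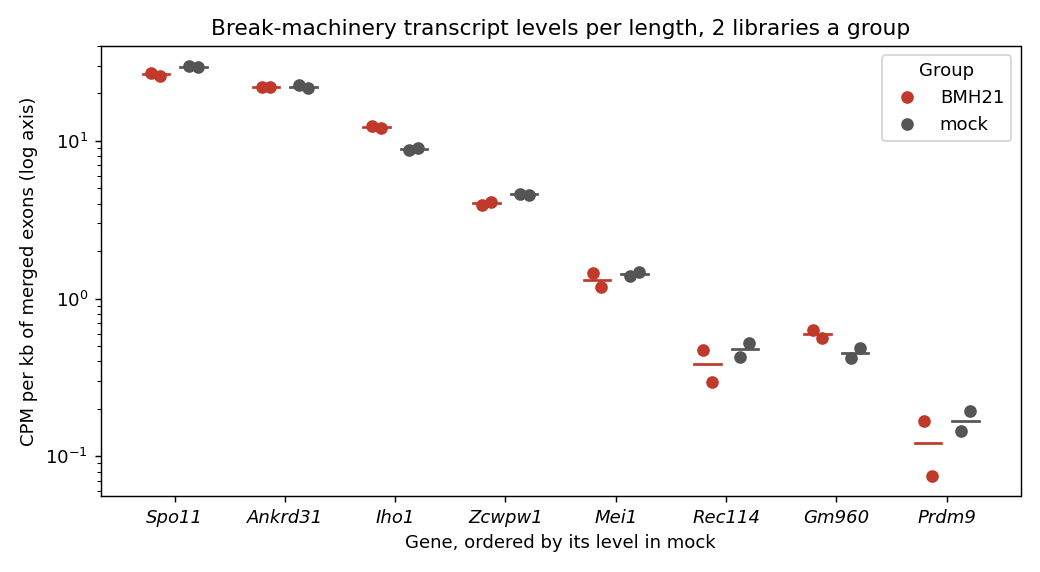
Level of each gene in CPM per kb of merged exons (log axis), with 1 point per library, BMH21 in red left of mock in grey, and a line at the mean of the 2 libraries. Spo11, Ankrd31 and Iho1 lie above 8 CPM per kb in every library, while Rec114, Gm960 and Prdm9 lie below 1.

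In order of level per length, Spo11 was followed by Ankrd31 (21.9 CPM per kb in BMH21, 22.1 in mock), Iho1 (12.3 and 8.88), Zcwpw1 (4.02 and 4.59) and Mei1 (1.32 and 1.44). The first 5 ranks were the same in both groups, and the libraries of neighbouring genes did not overlap within a group. Exon lengths came from an annotation whose gene positions mostly differ from those deposited with the counts. The spread between libraries does not cover an error in length. Rec114 (0.384 CPM per kb in BMH21, 0.478 in mock) and Gm960 (0.594 and 0.451) came next, and in mock their libraries overlapped. Set among 15670 listed genes with an annotated exon length, Spo11 stood above 85.7% of genes in BMH21 and 87.3% in mock, Ankrd31 above 83.2% and 83.6%, and Prdm9 above 17.8% and 22.1%. The level of Iho1 exceeded that of 75.0% of genes in BMH21 and 70.8% in mock. In bulk libraries a lower level cannot be told apart from fewer cells of the kind that carries the transcript.

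With BMH21, 1 of the 8 genes rose (Iho1), 1 fell (Spo11) and 6 were not called. That is 25% called, beside the 29.1% of all tested genes given above, so the share of the set that was called lay near the background. DESeq2 also called 2 of the 8, in the same directions, beside 21.7% of the genes to which it gave an adjusted p. In edgeR 3 of the 8 had an unadjusted p under 0.05. The median log2 fold change (BMH21 over mock) was -0.15 over the 8 genes and 0.00 over all tested genes. The quartiles of all tested genes were -0.17 and 0.18, and the difference of the medians was not tested. Libraries of the groups did not overlap for 4 of the 8 genes (50%), 2 higher and 2 lower in BMH21, against 60.9% of all tested genes (30.9% higher and 29.9% lower). With 2 libraries a group, an exact permutation test of a single gene cannot go below p = 0.333, so each call rests on a spread pooled across genes.

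**Figure D2:**
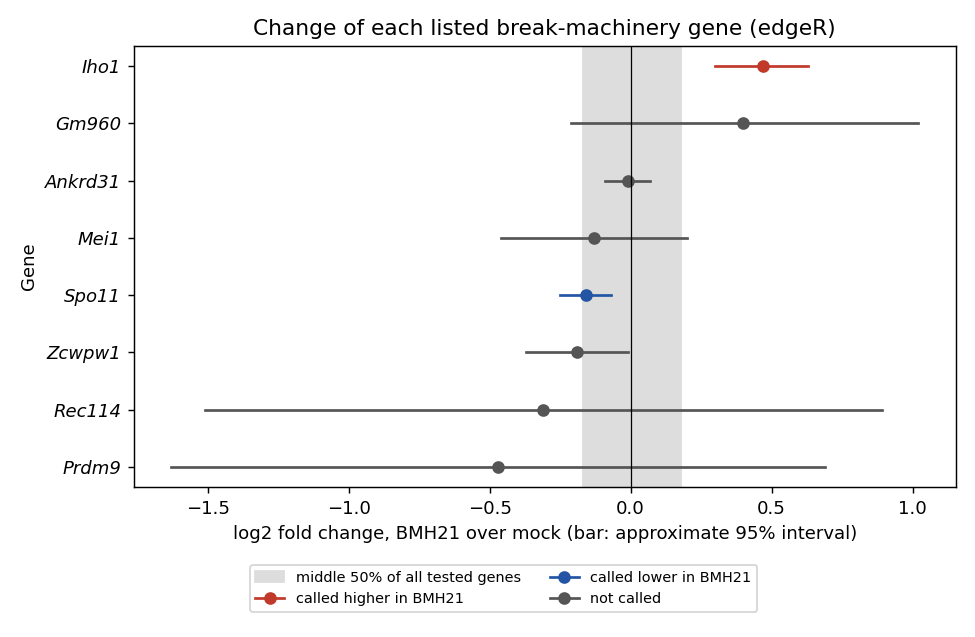
Log2 fold change of each gene, BMH21 over mock, with its approximate 95% interval; the grey band spans the quartiles of all tested genes (-0.17 to 0.18). The interval of Iho1 lies wholly above the band, and those of Rec114 and Prdm9 are the widest. Those of Spo11 and of Zcwpw1, which was not called, lie below 0.

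Spo11, the gene of the catalytic subunit (ENSMUSG00000005883.16, chromosome 2, 172977700 to 172993576 on GRCm38, plus strand), was at 106 and 102 CPM in the BMH21 libraries and 117 and 115 CPM in the mock libraries. Both BMH21 libraries were below both mock libraries. The change was small, a log2 fold change of -0.16 ± 0.04 (SE), or 0.896-fold with a 95% interval of 0.843 to 0.952 (edgeR adjusted p = 0.00358). Without mock replicate 1 the fall was no longer called, at -0.15 with an adjusted p of 0.0576, and over all alternatives the adjusted p ran from 9.30e-05 to 0.0576. Of 7 pachytene markers, 5 were also called lower, among them Piwil1 (-0.16), Ccna1 (-0.15) and Hspa2 (-0.07). Adam3 was called higher (0.06) and Tbpl1 was not called (0.04). The summed level of these 7 markers was 4692 to 4702 CPM in BMH21 and 4804 to 4818 CPM in mock. Their part in the fall of Spo11 was not tested. Spo11 is known to give rise to splice forms that differ between early and later meiotic prophase, and counts per gene do not separate them.

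Gm960, which encodes the TOPOVIBL partner of SPO11 (chromosome 19, 4625734 to 4698668, minus strand), was far rarer than Spo11. It had 77 and 77 counts in BMH21 and 65 and 56 in mock, or 2.32 and 2.08 CPM against 1.55 and 1.79 CPM. Although both BMH21 libraries were higher than both mock libraries, the gene was not called (log2 fold change 0.40 ± 0.31 (SE), edgeR adjusted p = 0.372). Its 95% interval ran from 0.862-fold to 2.02-fold.

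Iho1, the gene of the axis protein that binds HORMAD1 and brings the accessory break factors to unsynapsed axes (ENSMUSG00000047220.6, chromosome 9, 108403611 to 108428484, minus strand), rose. The BMH21 libraries had 35.8 and 35.0 CPM, from 1187 and 1297 counts, and the mock libraries 25.4 and 25.9 CPM, from 1065 and 811 counts. The groups lay well apart relative to the spread within each: means were 35.4 ± 0.586 CPM in BMH21 and 25.7 ± 0.402 CPM in mock (SD, n = 2 each). Its log2 fold change was 0.47 ± 0.08 (SE), a 1.38-fold level with a 95% interval of 1.23 to 1.54 (edgeR adjusted p = 3.69e-06). In all 11 alternative settings the gene remained called, with log2 fold changes from 0.42 to 0.48 and adjusted p from 7.06e-07 to 0.000234. The listed genes on each side of Iho1, looked up after its value was seen, were not called: 1700102P08Rik had a log2 fold change of -0.04, and BC048562 had 1.69 and 1.30 CPM in BMH21 against 0.739 and 0.736 CPM in mock (1.01, edgeR adjusted p = 0.0668).

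Ankrd31, which encodes an ankyrin-repeat partner of REC114 (ENSMUSG00000109561.2, chromosome 13, 96748272 to 96910039, plus strand), was the most abundant of the accessory factors. It was at 136 and 136 CPM in BMH21 and 139 and 135 CPM in mock, with the BMH21 libraries between the mock ones. The log2 fold change was -0.01 ± 0.04 (SE; edgeR adjusted p = 0.852), and the 95% interval ran from 0.937-fold to 1.05-fold.

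Rec114, whose product forms a complex with MEI4 and with ANKRD31 (chromosome 9, 58652850 to 58743964, minus strand), was close to the detection limit. Counts were 20 and 14 in BMH21 and 23 and 21 in mock. Exact Poisson 95% intervals, which cover counting error only, were 12.2 to 30.9 and 7.65 to 23.5 counts for the BMH21 libraries, and 14.6 to 34.5 and 13.0 to 32.1 for the mock libraries. No difference was detectable at this depth: the log2 fold change was -0.31 ± 0.60 (SE), and a level from 0.351-fold to 1.85-fold lies inside the 95% interval. The deposited table also lists Nptn, a gene on the opposite strand with 344 exon bases in common, at 1.63 and 2.10 CPM in BMH21 and 1.55 and 1.47 CPM in mock. Whether reads were counted by strand is not given in the sources used, and those of the shared stretch cannot be assigned with certainty.

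Mei1, which is required for break formation in mice (chromosome 15, 82069996 to 82126814, plus strand), was at 6.88 and 5.59 CPM in BMH21 and 6.65 and 7.01 CPM in mock. The groups overlapped. Its log2 fold change of -0.13 ± 0.16 (SE) was not called (edgeR adjusted p = 0.621), and the 95% interval ran from 0.726-fold to 1.15-fold.

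Prdm9, the hotspot methyltransferase gene (ENSMUSG00000051977.17, chromosome 17, 15543079 to 15564354, minus strand), had 24 and 12 counts in BMH21 and 26 and 26 in mock. BMH21 replicate 1 lay between the mock libraries in CPM (0.724, against 0.620 and 0.832), and BMH21 replicate 2 lay below both (0.324). At this depth the log2 fold change of -0.47 ± 0.58 (SE) was not distinguishable from 0 (edgeR adjusted p = 0.618), and it read 0.00 without BMH21 replicate 2 and as low as -1.15 with another library left out. A level from 0.324-fold to 1.61-fold lies inside the 95% interval.

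Zcwpw1, the gene of the reader of PRDM9 marks (chromosome 5, 137787798 to 137822621, plus strand), was at 22.3 and 23.5 CPM in BMH21 and 26.4 and 25.9 CPM in mock. Both BMH21 libraries were the lower ones. The log2 fold change of -0.19 ± 0.09 (SE) did not pass (edgeR adjusted p = 0.103), and under upper quartile scaling it did (-0.24, adjusted p = 0.0343). Pilra, on the opposite strand with 468 exon bases in common, was at 2.72 and 2.89 CPM in BMH21 and 3.48 and 2.91 CPM in mock.

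Ratios of counts within a library need no scaling between libraries. They are given as a description: they restate the counts above, for genes chosen with their calls known. Iho1 had 33.9 and 34.3 counts per 100 Spo11 counts in BMH21 and 21.8 and 22.5 in mock, a 1.54-fold difference of the means. Against Ankrd31 as the denominator, Iho1 stood at 26.4 and 25.7 per 100 in BMH21 and 18.2 and 19.2 in mock. Spo11 had 77.9 and 75.0 counts per 100 Ankrd31 counts in BMH21 and 83.6 and 85.5 in mock. Zcwpw1 followed Spo11 closely, with 21.1 and 23.0 counts per 100 Spo11 counts in BMH21 and 22.6 and 22.5 in mock, values that overlap.

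**Figure D3:**
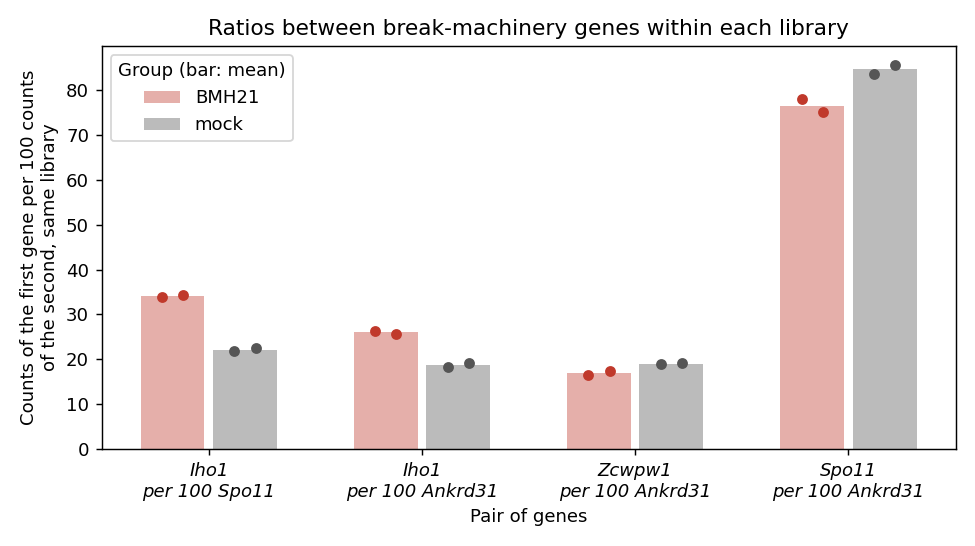
Counts of one gene per 100 counts of another in the same library; bars are means of 2 libraries, points are libraries, BMH21 left of mock. Iho1 is higher in BMH21 relative to both Spo11 and Ankrd31, while Spo11 and Zcwpw1 are slightly lower relative to Ankrd31.

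Genes that act with the break machinery were examined in 5 lists. Of 42 genes tested in them, 7 rose, 5 fell and 30 were not called; 28.6% were called, beside 29.1% of all tested genes, and their median log2 fold change was -0.03.

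Among partners of PRDM9 at hotspots, 1 of 6 was called, with a list median of -0.04. It was Zcwpw2, a relative of Zcwpw1, which rose, at 3.80 and 3.35 CPM in BMH21 and 1.43 and 2.78 CPM in mock (log2 fold change 0.79, edgeR adjusted p = 0.0186). That call was lost in DESeq2 (0.77), without mock replicate 1 (0.36) and without BMH21 replicate 1 (0.69). Ewsr1, an RNA-binding protein gene, was at 497 and 502 CPM in BMH21 and 515 and 508 CPM in mock. Ehmt2, a histone methyltransferase gene, was at 341 and 336 CPM in BMH21 and 346 and 355 CPM in mock. Neither was called, but both were called lower under upper quartile scaling (-0.08 for Ewsr1 and -0.10 for Ehmt2), which brings that list to 3 called.

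Among these lists, that of chromosome axis and break-control genes held the largest share of calls, with 3 of 9 tested higher and 2 lower. Its median was -0.01. Over all tested genes, 16.5% were called higher and 12.5% lower. Neither the difference of this list of 9 genes from those shares nor the part of transcript abundance in it was tested. Hormad1, whose product binds IHO1 on unsynapsed axes, was at 198 and 203 CPM in BMH21 and 160.3 and 159 CPM in mock, a log2 fold change of 0.33 ± 0.04 (SE; edgeR adjusted p = 8.69e-12). Sycp3, a lateral element gene, was at 166 and 178 CPM in BMH21 and 125 and 124 CPM in mock (0.46 ± 0.04, edgeR adjusted p = 1.15e-15). Smc1b, a meiotic cohesin gene, was at 271 and 296 CPM in BMH21 and 234 and 228 CPM in mock (0.29 ± 0.03, edgeR adjusted p = 3.55e-11). The 2 genes that fell, Sycp2 (-0.13) and Rec8 (-0.51), were named after their values were seen. Sycp2 was called in all 11 alternatives. Rec8 lost its call in DESeq2 (-0.52), without mock replicate 2 (-0.44) and without BMH21 replicate 1 (-0.27). Iho1 and Hormad1, whose products bind each other, both rose, with BMH21 libraries above mock libraries for each. This pair was picked with its calls known, and a joint change was not tested. Genes of other partners differed: Spo11 fell (-0.16) and Gm960 was not called (0.40). Spata22 rose (0.49) and Meiob fell (-0.63), while Ythdc2 rose (0.92) and Meioc was not called (0.03). Ankrd31 and Rec114 were both not called. Hormad2, also named after its value was seen, had a log2 fold change of -0.01.

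Break end processing had 0 of 7 genes called in either direction by edgeR and 0 by DESeq2 (0 also had an unadjusted edgeR p under 0.05), with a list median of -0.08. With 1 library left out, 1 gene was called in each of 3 fits: Exo1 lower without mock replicate 2 (-0.46), Rad50 lower without BMH21 replicate 2 (-0.29) and Blm higher without BMH21 replicate 1 (0.18). Blm, a helicase gene, was at 86.1 and 101 CPM in BMH21 and 87.2 and 90.9 CPM in mock (0.07). Rbbp8, the gene of the resection factor CtIP, was at 80.3 and 77.0 CPM in BMH21 and 76.1 and 74.8 CPM in mock. Mre11a, a nuclease gene, was at 58.4 and 54.1 CPM in BMH21 and 59.4 and 60.4 CPM in mock.

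Strand invasion genes went both ways, 2 of 13 higher and 2 lower, with a median of -0.04. Sfr1, a recombinase accessory gene, was at 48.3 and 53.5 CPM in BMH21 and 37.1 and 40.2 CPM in mock (log2 fold change 0.40, edgeR adjusted p = 4.00e-06). Spata22, a partner of the single-strand binding protein MEIOB, was at 13.9 and 17.1 CPM in BMH21 and 10.6 and 11.5 CPM in mock (0.49; not called without BMH21 replicate 2, 0.34). Brca2, a gene of homologous recombination, was at 197 and 197 CPM in BMH21 and 215 and 212 CPM in mock (-0.12; not called without mock replicate 1, -0.10).

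Among regulators of the meiotic program, 1 of 7 rose and 1 fell, with a median of 0.03. Ythdc2, which encodes an RNA helicase needed for meiotic entry, was at 40.4 and 40.8 CPM in BMH21 and 22.0 and 21.1 CPM in mock (log2 fold change 0.92 ± 0.08 (SE), edgeR adjusted p = 4.77e-15). Mybl1, the gene of A-MYB, was at 188 and 198 CPM in BMH21 and 209 and 207 CPM in mock (-0.11). Its call was lost in DESeq2 (-0.11) and in 3 fits that each left out a library: mock replicate 1 (-0.10), mock replicate 2 (-0.11) and BMH21 replicate 1 (-0.07). Meioc, the partner of YTHDC2, was at 597 and 624 CPM in BMH21 and 601 and 598 CPM in mock.

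**Figure D4:**
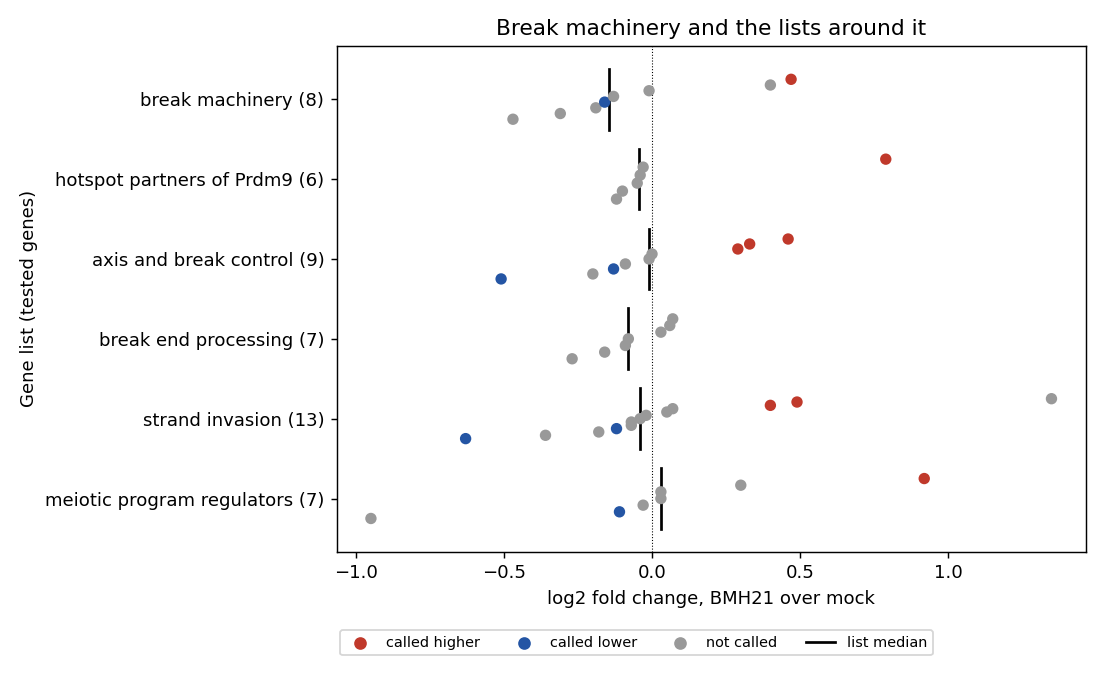
Log2 fold change (BMH21 over mock) of each tested gene in the break machinery and the 5 lists around it, coloured by call, with a black line at each list's median. List medians lie between -0.15 and 0.03, and genes called higher and lower occur side by side in the axis and strand invasion lists.

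Markers of leptotene and zygotene, the stages at which the breaks are made, were mixed. Of 5 listed, 1 fell and 4 were not called, beside 29.1% called and 12.5% called lower over all tested genes. Log2 fold changes of the 5 ran from -0.95 (Meiosin) to 1.35 (Dmc1), and neither of these genes was called. The summed level of the 5 markers was 605 and 632 CPM in BMH21 and 609 and 607 CPM in mock. Almost all of that sum came from Meioc, so it says little about the rarer markers. Rad51ap2 was at 4.95 and 3.08 CPM in BMH21 and 3.10 and 3.14 CPM in mock. Outside the rule for named genes, and chosen after their values were seen, the recombinase gene Dmc1 was at 0.573 and 1.38 CPM in BMH21 and 0.381 and 0.384 CPM in mock, and Meiob, the gene that fell, at 2.02 and 3.43 CPM in BMH21 and 3.74 and 4.77 CPM in mock. The log2 fold change of Meiob was -0.63, and its call was lost in DESeq2 (-0.64), without mock replicate 2 (-0.45) and without BMH21 replicate 1 (-0.30). Prdm9, Rec114 and Dmc1 all had levels of this low order, whereas Spo11 and Ankrd31 were above 100 CPM in every library. Whether a few earlier cells in the sort carry the rare transcripts was not tested.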

How the data were processed

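Per the labels' protocols, the library kit was a stranded one for mRNA. The submitters' processing notes name fastp, STAR, SAMtools, featureCounts, DESeq2 and mm10, without versions or settings. The authors deposited raw read counts per protein-coding gene and library, and only these columns were used. Coordinates and exon lengths are those of GENCODE M21 on GRCm38, taken by gene identifier, since gene positions in the table differed from it for all but 369 of 15670 matched genes.

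Counts were tested in R 4.3.3 with edgeR 4.0.16 (filterByExpr with minimum count 10, TMM scaling, quasi-likelihood test on group, Benjamini-Hochberg over 13793 genes). Standard errors (log2 fold change over the square root of F) and the 95% intervals made from them are approximate. CPM uses TMM-scaled library sizes. The fit was tested on simulated data in which all genes shared a common spread between replicates, so that check does not cover genes with another spread. Chi-square per degree of freedom between replicates was 3.78 in BMH21 and 3.23 in mock, above sampling noise.

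Members and lists were chosen with earlier results of these data known. Named in each list were up to 3 called genes with the smallest p, filled up by abundance, and the 2 most abundant markers. Stra8, Rad21l and 8 other marker genes were not analysed here. Alternatives were RLE and upper quartile scaling, no filter or a minimum count of 50, DESeq2 1.42.0, a replicate block, autosomal genes only and leaving out each library.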

Additional observations from a re-analysis of the deposited data

How the results depend on the processing

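Iho1 kept its direction and its call under all 11 alternatives. The number of break-machinery genes called was 2, and 1 to 2 with 1 library left out; it was 1 without mock replicate 1, where Spo11 lost its call, and 3 under upper quartile scaling, where Zcwpw1 gained one. Over all genes 4013 were called, with 2997 to 3549 when 1 library was left out and 2953 in DESeq2; over the 5 lists 12 were called, with 9 to 12 and 8. Under upper quartile scaling 16 list genes were called, 7 higher and 9 lower. With the replicate block 3785 genes, 2 break-machinery genes and 12 list genes were called. Among the genes named the block changed only the call of Kit (-0.58, edgeR adjusted p = 0.0555). Deviations of same-numbered libraries did not correlate (r = 0.0125 across genes). With 2 libraries a group this cannot decide whether the samples were paired, and the labels name no pairing. Signs turned for some values near 0 with 1 library left out, and the cause was not tested. Log2 fold changes ran from -0.04 to 0.01 for Ankrd31, -0.29 to 0.01 for Mei1, -0.05 to 0.18 for Blm and -0.01 to 0.06 for Meioc. Prdm9, at -0.47 with all libraries and with 12 to 26 counts in each, ran from -1.15 to 0.00. Meioc also read -0.02 under upper quartile scaling, which shifted all genes by a median of -0.05. Prdm9 and Rec114 did not pass the stricter filter. Depth limits these 2 genes and Gm960 most.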
